A study of Mus musculus with 8 samples.

Results

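Interferon-stimulated genes are the genes that cells switch on after interferon, the secreted signal of antiviral defence. A fixed list of 47 of their gene symbols was followed in platelet RNA, and all 47 were found, each as 1 of the 55487 genes in the count and TPM tables. The libraries come from 4 male mice labelled Dnmt3a+/-, heterozygous for the DNA methyltransferase gene Dnmt3a, and from 4 male WT littermates, all aged 13 weeks. Platelets were spun out of platelet-rich plasma from heart-puncture blood, and beads against Ter119 and CD45 took away red cells and leukocytes. The sources used here do not give the mouse strain, how the mutant allele was made or in which cells it acts. The title sets the study in work on DNMT3A and the bias of blood stem cells towards megakaryocytes.

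An interferon of type I binds the receptor of Ifnar1 and Ifnar2, and the kinases Jak1 and Tyk2 then activate transcription factors, Stat2 among them. With Irf9 these form a complex that binds the interferon-stimulated response element in the promoters of its target genes. Interferon gamma acts through another element, the gamma-activated site. Platelets have no nucleus, so the transcripts they hold were made in the parent megakaryocyte or taken up, and members such as IFITM3 are known in human platelets from infection studies.

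Total counts ran from 15620972 to 22160394 in the Dnmt3a+/- libraries and from 15185218 to 17398666 in the WT libraries. The 12 platelet markers, among them Ppbp and Itga2b, took 4.48% to 5.10% of counts in Dnmt3a+/- libraries and 4.13% to 4.91% in WT libraries. Dnmt3a itself was at 9.96, 11.5, 24.2 and 19.5 CPM (counts per 1000000 after TMM scaling) in Dnmt3a+/- replicates 1 to 4, against 21.1, 22.1, 19.8 and 18.2 CPM in WT replicates 1 to 4. Replicates 1 and 2 of the libraries labelled Dnmt3a+/- lay below every WT value, and replicates 3 and 4 did not, so every direction below is between labels. WT replicate 1 stood apart by its red cell transcripts, with 2.03% of counts in 11 erythroid markers, against 0.318% to 0.486% in Dnmt3a+/- libraries and no more in the other WT libraries than in those. In bulk RNA, fewer cells of a type and less RNA per cell cannot be told apart.

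Promoter stretches are shown for 8 members. Whether these letters bear on the levels or on the differences between libraries was not tested. The capitals mark the core of the interferon-stimulated response element, which is GAAA and GAAA with any 2 bases between them, on either strand, with overlapping matches joined. All are from RefSeq on GRCm38.p6, 5′ to 3′ along the gene. Isg15, Rsad2 and Bst2 are members with their highest level in WT replicate 1. Isg20, Lgals3bp and Irf7 were also highest there and lacked the core, while Ifit1 and Ifit3 held it and were lowest there. Igtp and Irgm2 are neighbouring GTPase genes, and Ifit1, Ifit3 and Ifit3b belong to one cluster on chromosome 19.
Isg15 (chr4:156200855-156200916, minus strand): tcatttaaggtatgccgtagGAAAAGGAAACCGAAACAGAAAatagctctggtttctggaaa
Rsad2 (chr12:26456543-26456592, minus strand): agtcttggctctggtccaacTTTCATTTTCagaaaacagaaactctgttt
Bst2 (chr8:71537567-71537622, minus strand): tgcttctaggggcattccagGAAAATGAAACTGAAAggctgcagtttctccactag
Igtp (chr11:58199502-58199551, plus strand): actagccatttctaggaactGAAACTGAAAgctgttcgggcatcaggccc
Irgm2 (chr11:58214893-58214942, plus strand): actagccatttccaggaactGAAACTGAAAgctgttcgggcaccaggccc
Ifit1 (chr19:34640765-34640833, plus strand): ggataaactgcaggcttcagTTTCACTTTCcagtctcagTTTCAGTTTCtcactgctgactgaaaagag
Ifit3 (chr19:34583353-34583436, plus strand): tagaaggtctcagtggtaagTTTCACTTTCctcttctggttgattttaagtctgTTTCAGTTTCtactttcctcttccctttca
Ifit3b (chr19:34607749-34607832, plus strand): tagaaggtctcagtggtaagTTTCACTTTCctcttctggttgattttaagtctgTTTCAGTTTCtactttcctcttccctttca

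The Isg15 stretch holds 3 overlapping matches, and the stretches of Ifit3 and Ifit3b are the same over all 84 bases. The stretches of Igtp and Irgm2 match in 48 of 50 bases. The table has a window for 38 of the 47 members, and 20 of these 38 genes (52.6%) hold the core in the 250 bases before and 50 bases after a start, against 1079 of 27025 genes in the whole table (3.99%). The gamma-activated site, searched as TTC and GAA with any 3 bases between them, a pattern that reads the same on both strands, was found in 10 of 38 members (26.3%) and in 9.55% of all genes. Matches of these searches can overlap. A match is only a run of letters, and some abundant members had none. Lgals3bp and Ifi47 had a match in neither search, and Ifit2 and Isg20 lacked the response element core but held a gamma-activated site pattern.

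**Figure D1:**
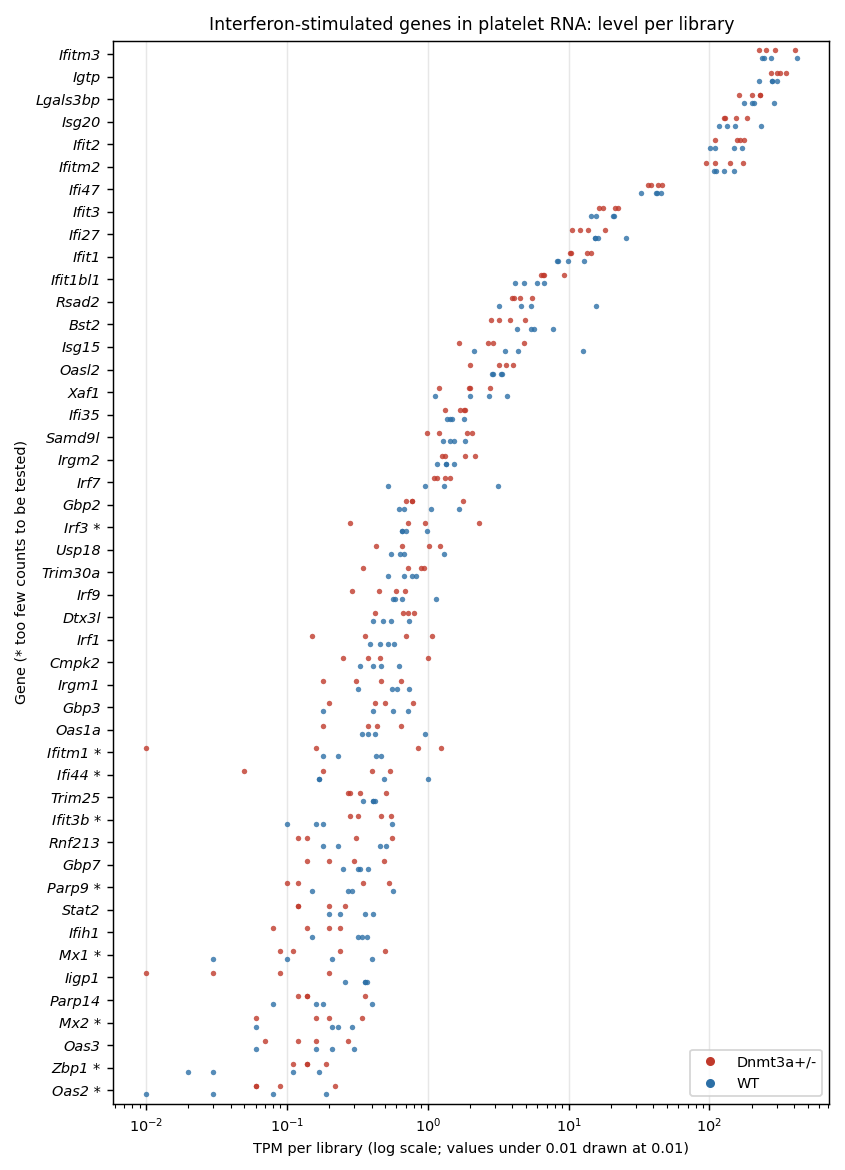
TPM of each of the 47 interferon-stimulated genes in each of 4 Dnmt3a+/- libraries (red, upper row of points for each gene) and 4 WT libraries (blue, lower row), on a log axis, ordered by mean. Levels span from Ifitm3 at a mean of 294 TPM to Oas2 at 0.0913 TPM, and the 2 labels lie over each other for nearly all genes.

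A few members held almost all of the interferon-stimulated RNA. TPM corrects for gene length, so it allows levels of different genes to be set side by side. Over all 8 libraries, 6 members averaged at least 100 TPM, as 637 genes in the whole table did, and 26 members averaged under 1 TPM. Those 6 made up 90.3% of the summed mean of 1351 TPM. They were Ifitm3 (294 TPM) and Ifitm2 (127 TPM), membrane proteins that block the fusion of viruses, Igtp (290.5 TPM), a GTPase of cell-autonomous immunity in the mouse, Lgals3bp (212 TPM), a secreted glycoprotein that binds galectin-3, Isg20 (154 TPM), an RNA exonuclease, and Ifit2 (142 TPM), an RNA-binding protein. Some members that usually mark an interferon response were scarce, and others were not. Isg15 averaged 4.36 TPM, Irf7 1.37 TPM, Usp18 0.814 TPM, Mx1 0.210 TPM and Oas2 0.0913 TPM. Beside Ifit2, Ifit3 averaged 18.7 TPM, Ifi27 15.9 TPM and Ifit1 11.0 TPM.

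The summed level overlapped between the labels. The 47 genes summed to 1576, 1225, 1343 and 1332 TPM in Dnmt3a+/- replicates 1 to 4, against 1650.2, 1329, 1103 and 1248 TPM in WT replicates 1 to 4. The sums averaged 1369 ± 148 TPM in Dnmt3a+/- libraries and 1333 ± 231 TPM in WT libraries (SD, n = 4 each). Both libraries numbered 1 had the highest sum of their label, and the ranges overlapped. As a share of all counts the members took 0.178% ± 0.00553 in Dnmt3a+/- libraries and 0.171% ± 0.0193 in WT libraries (SD, n = 4 each).

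No interferon-stimulated gene passed the test between labels. Of the 47 members, 38 had enough counts to be tested, and the other 9 had between 0 and 30 counts in a library. The edgeR quasi-likelihood test, adjusted over all 7362 genes tested, called 0 of 38 members and 0% of all genes, and DESeq2 and limma also called 0 of 38. Over all genes DESeq2 called 9, all lower in Dnmt3a+/- libraries, and limma called 0. At an unadjusted p under 0.05 edgeR had 3 members (7.89%), where 4.92% of all genes were under it. Of these Ifit1bl1 was higher in Dnmt3a+/- libraries, as 1.73% of all genes were, and Iigp1 and Bst2 were lower, as 3.19% of all genes were. Without WT replicate 1, only Iigp1 was under it, 1 of 40 members tested in that edgeR fit, beside 448 of 7718 genes. The log2 fold change, Dnmt3a+/- minus WT, was negative for 22 of 38 members (57.9%) and for 51% of all genes. Its median was -0.08 over the members and -0.01 over all genes, and 31 of 38 members lay within 0.5 of 0. The standard error had a median of 0.29, so a difference of that size in a single member could not be seen with 4 mice a label. Values of the labels did not overlap for 2 of 38 members, Iigp1 and Ifit1bl1, and for 2.54% of all genes. Iigp1 passed the filter on low counts through its WT libraries only.

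**Figure D2:**
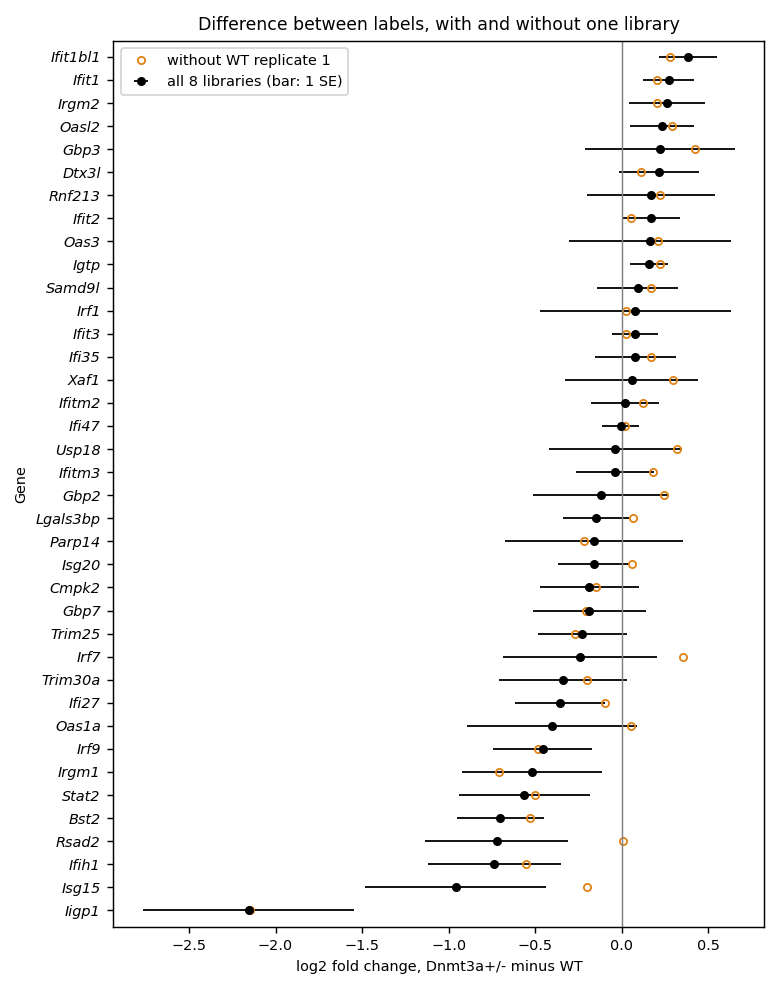
Log2 fold change, Dnmt3a+/- minus WT, for the 38 tested members with all 8 libraries (black, bar of 1 standard error) and without WT replicate 1 (open orange circles). Iigp1 lies lowest at -2.16, and Rsad2 moves from -0.72 with all libraries to 0.00 without WT replicate 1.

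Sensors and transcription factors of the response were near the limit of detection. Irf7, the factor that amplifies type I interferon production, was at 1.25, 1.42, 0.971 and 1.91 CPM in Dnmt3a+/- replicates 1 to 4, against 3.38, 1.41, 0.690 and 1.17 CPM in WT replicates 1 to 4. Only WT replicate 1 lay outside the range of the Dnmt3a+/- libraries on the high side, and WT replicate 3 on the low side. Stat2 and Irf9, partners in the complex that type I interferon activates, had log2 fold changes of -0.56 (SE 0.38) and -0.46 (SE 0.28). Ifih1, a sensor of double-stranded RNA, was at -0.74 (SE 0.38), from 6 to 18 counts a library, and Irf1, a factor induced by interferon gamma, at 0.08 (SE 0.55). For all 4 the edgeR adjusted p was 0.998. Irf3, the factor that starts interferon transcription, had 3 to 13 counts and Zbp1, a sensor of Z-form nucleic acid, had 1 to 5 counts, both too few to be tested.

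The IFIT genes, whose proteins bind viral RNA and block its translation, lie together within chr19:34550694-34650009 (GRCm38), and their levels there differ widely. Ifit2 was at 366, 559.9, 506 and 513 CPM in Dnmt3a+/- replicates 1 to 4, against 329, 449, 406 and 549 CPM in WT replicates 1 to 4. Ifit1 was at 24.5, 29.8, 23.3 and 31.3 CPM in Dnmt3a+/- libraries, against 19.3, 26.8, 22.2 and 22.0 CPM in WT libraries. The lowest library for both was WT replicate 1, and the labels overlapped. Ifit3 was at 24.3, 31.6, 25.2 and 29.3 CPM in Dnmt3a+/- libraries, against 23.2, 27.3, 24.3 and 29.9 CPM in WT libraries. Ifit1bl1, a mouse relative of Ifit1, was at 12.7, 16.7, 11.8 and 11.8 CPM in Dnmt3a+/- libraries, against 7.90, 11.4, 10.4 and 10.9 CPM in WT libraries. All 4 Dnmt3a+/- values lay above all 4 WT values there, by as little as 11.8 against 11.4 CPM. The log2 fold changes were 0.38 for Ifit1bl1 (SE 0.17, 95% interval 0.01 to 0.75, edgeR adjusted p = 0.986), 0.27 for Ifit1 (SE 0.14), 0.17 for Ifit2 (SE 0.17) and 0.08 for Ifit3 (SE 0.13), with an edgeR adjusted p of 0.998 for the other 3. Without WT replicate 1, the lowest library for Ifit1bl1, its log2 fold change was 0.28. Ifit3b had 2 to 17 counts and was not tested. Of the 50-base words in the longest Ifit3 transcript, 51.2% also stand in Ifit3b, so the division of reads between these copies is uncertain.

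The IFITM genes differed more between mice than between labels. Ifitm3 was at 199, 105, 142 and 115 CPM in Dnmt3a+/- replicates 1 to 4, against 206, 123, 134 and 114 CPM in WT replicates 1 to 4. Ifitm2 was at 82.0, 42.4, 64.4 and 47.7 CPM in Dnmt3a+/- libraries, against 70.4, 54.3, 58.3 and 50.1 CPM in WT libraries. Replicate 1 was the highest library of each label for both genes. The means of Ifitm3 were 140.4 ± 42.1 CPM in Dnmt3a+/- libraries and 144 ± 42.1 CPM in WT libraries (SD, n = 4 each), with a log2 fold change of -0.04 (SE 0.23, 95% interval -0.54 to 0.46, edgeR adjusted p = 0.998). Ifitm1, the third gene of the family here, had 0 to 10 counts. For Ifitm2, 48.5% of the 50-base words of its transcript also stand in other annotated genes, chiefly the overlapping model Gm45717.

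The ISG15 system attaches Isg15, a ubiquitin-like protein, to other proteins, and Usp18 takes it off again and dampens the receptor. Isg15 was at 2.51, 1.30, 0.849 and 1.39 CPM in Dnmt3a+/- replicates 1 to 4, against 6.56, 2.06, 2.07 and 1.04 CPM in WT replicates 1 to 4. WT replicate 1 held more than every other library by 2.62 times, and the other 7 overlapped. The log2 fold change was -0.96 (SE 0.52, 95% interval -2.11 to 0.19, edgeR adjusted p = 0.998), and -0.20 without WT replicate 1. Usp18 was at 1.58, 0.619, 0.971 and 1.43 CPM in Dnmt3a+/- libraries, against 1.97, 0.866, 0.941 and 0.978 CPM in WT libraries. Uba7, the enzyme that activates Isg15 for transfer and no member of the list, averaged 721 TPM, where Isg15 averaged 4.36 TPM. A further list of 79 interferon-stimulated genes that holds Uba7 took only 0.0483% to 0.0734% of counts in a library. TPM depends on the transcript length assigned, and which form of Uba7 holds the reads was not examined. Trim25, an E3 ligase of RNA sensing, and Trim30a had log2 fold changes of -0.23 (SE 0.26) and -0.34 (SE 0.37). For Usp18 the log2 fold change was -0.04 (SE 0.38) with all libraries, but 0.32 without WT replicate 1. All 4 genes of this group had negative values with all libraries, and 0 passed. With limma on TPM, Usp18 and Trim30a were at 0.04 and 0.01.

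Among enzymes acting on RNA and nucleotides, Rsad2 showed the clearest single library. Its product, viperin, makes a chain-terminating nucleotide from CTP. Rsad2 was at 15.4, 13.1, 13.0 and 17.2 CPM in Dnmt3a+/- replicates 1 to 4, against 53.2, 16.2, 17.4 and 10.4 CPM in WT replicates 1 to 4. WT replicate 1 was 3.06 times the next library, from 835 counts, and the other 7 overlapped. The log2 fold change was -0.72 (SE 0.41, edgeR adjusted p = 0.998) and 0.00 without that library. Cmpk2, which makes CTP from CDP and lies beside Rsad2 on chromosome 12, pointing away from it across 12752 bases, was at 1.34 CPM in WT replicate 1, within the 0.725 to 1.46 CPM of the other libraries. Isg20 was at 149, 97.6, 121 and 97.3 CPM in Dnmt3a+/- libraries, against 187, 113, 127 and 94.4 CPM in WT libraries, with replicate 1 again the highest of each label. Of the oligoadenylate synthetase family, Oasl2 was at 4.88, 5.94, 4.91 and 7.03 CPM in Dnmt3a+/- libraries, against 5.41, 4.22, 5.58 and 4.24 CPM in WT libraries. The log2 fold change was -0.16 (SE 0.21) for Isg20, 0.23 (SE 0.18) for Oasl2, -0.40 (SE 0.49) for Oas1a and 0.16 (SE 0.47) for Oas3, each with an edgeR adjusted p of 0.998, and Oas2 had 0 to 16 counts. For Oas1a, 57.6% of the 50-base words of its transcript also stand in other genes, chiefly Oas1g.

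The interferon-inducible GTPases, which in mice guard the membranes around intracellular parasites and bacteria, ran from 290.5 TPM for Igtp to 0.209 TPM for Iigp1. Igtp was at 571.5, 489, 432 and 454 CPM in Dnmt3a+/- replicates 1 to 4, against 493, 407, 413 and 432 CPM in WT replicates 1 to 4. The labels overlapped, with a log2 fold change of 0.16 (SE 0.11, 95% interval -0.08 to 0.40, edgeR adjusted p = 0.998). Ifi47 was the steadiest tested member with counts in every library, at 58.9, 52.7, 63.0 and 64.6 CPM in Dnmt3a+/- libraries, against 62.8, 57.7, 54.0 and 65.8 CPM in WT libraries, a range of 1.25 times over 8 mice. Irgm2, with nearly the same promoter stretch as Igtp, averaged 1.505 TPM where Igtp averaged 290.5 TPM. The annotated spans of Igtp and Irgm2 overlap on the same strand, and 12.3% of the 50-base words of Igtp also stand in Irgm2, so the division of reads between them is uncertain too. Irgm1, a regulator of the other GTPases in this family, averaged 0.480 TPM. The 3 guanylate-binding proteins Gbp2, Gbp3 and Gbp7 averaged 1.01, 0.475 and 0.301 TPM, with log2 fold changes from -0.19 to 0.22 and an edgeR adjusted p of 0.998 each.

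Iigp1, an effector of the same family that strips vacuoles from parasites, had the largest difference among the tested members, on few reads. It passed the filter on low counts only through its WT libraries, the label where it was higher. A gene as low under both labels as Iigp1 was in Dnmt3a+/- libraries would not have been tested. It had 3, 0, 1 and 9 counts in Dnmt3a+/- replicates 1 to 4, against 13, 14, 12 and 14 counts in WT replicates 1 to 4. In CPM these were 0.198, 0, 0.0607 and 0.391 in Dnmt3a+/- libraries, against 0.828, 0.758, 0.753 and 0.913 in WT libraries. Every Dnmt3a+/- value lay below every WT value, and Dnmt3a+/- replicate 4 was the nearest. The log2 fold change was -2.16 (SE 0.61, 95% interval -3.50 to -0.81), with an edgeR adjusted p of 0.647 over all genes. With 1 library left out it ran from -3.16 without Dnmt3a+/- replicate 4 to -1.81 without Dnmt3a+/- replicate 2, and limma on log2(TPM + 0.5), which understates the change of low genes, gave -0.54. Hepatocyte transcripts also lay lower in Dnmt3a+/- libraries, with 15 markers at 8.81e-05% to 0.0147% of counts, against 0.00174% to 0.171% in WT libraries. WT replicate 1, at 0.00174%, was inside the Dnmt3a+/- range of hepatocyte transcripts and had 13 counts of Iigp1. The part of hepatocyte transcripts in the Iigp1 difference was not tested.

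Bst2, or tetherin, which holds budding viruses on the cell surface, was at 2.31, 1.61, 1.88 and 2.69 CPM in Dnmt3a+/- replicates 1 to 4, against 4.65, 3.08, 3.70 and 2.48 CPM in WT replicates 1 to 4. Only WT replicate 4 lay inside the range of the Dnmt3a+/- libraries. The log2 fold change was -0.70 (SE 0.25, 95% interval -1.26 to -0.15, edgeR adjusted p = 0.774), and -0.53 without WT replicate 1. Bst2 also marks plasmacytoid dendritic cells, and 9 other markers of these cells averaged 0.000218% of counts in Dnmt3a+/- libraries and 0.000336% in WT libraries, lower under the same label as Bst2. The 1 of them with enough counts to be tested had a log2 fold change of -0.59, and their defining gene Siglech had 0 to 5 counts a library. WT replicate 1, the highest library for Bst2, had 0.000244% of counts in the 9 markers. That was inside the Dnmt3a+/- range of 0.000179% to 0.000277%, and the highest share was 0.000475% in WT replicate 2. The part of plasmacytoid dendritic cells in the Bst2 values was not tested. The GTPases Mx1 and Mx2, which trap viral particles, had 1 to 12 and 2 to 9 counts and were not tested.

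The remaining members gave small differences. Lgals3bp was at 345, 218, 300.3 and 269 CPM in Dnmt3a+/- replicates 1 to 4, against 446, 288, 273 and 250.3 CPM in WT replicates 1 to 4. Ifi27, a small mitochondrial and nuclear membrane protein, was at 12.9, 7.18, 9.52 and 7.64 CPM in Dnmt3a+/- libraries, against 17.9, 8.39, 12.1 and 9.26 CPM in WT libraries. Replicate 1 was the highest of each label for both. Their log2 fold changes were -0.15 (SE 0.19) and -0.36 (SE 0.26), with an edgeR adjusted p of 0.998 each. Ifi35, Xaf1, Rnf213 and Samd9l had log2 fold changes from 0.06 to 0.17. Dtx3l, a ubiquitin ligase that works with Parp9, and the mono-ADP-ribosyltransferase Parp14 were at 0.22 (SE 0.23) and -0.16 (SE 0.51). Parp9 had 4 to 30 counts and Ifi44 had 2 to 29. Parp9 overlaps Dtx3l on the other strand, the kit marks strand per the labels' protocols, and whether the counting used strand is not stated.

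**Figure D3:**
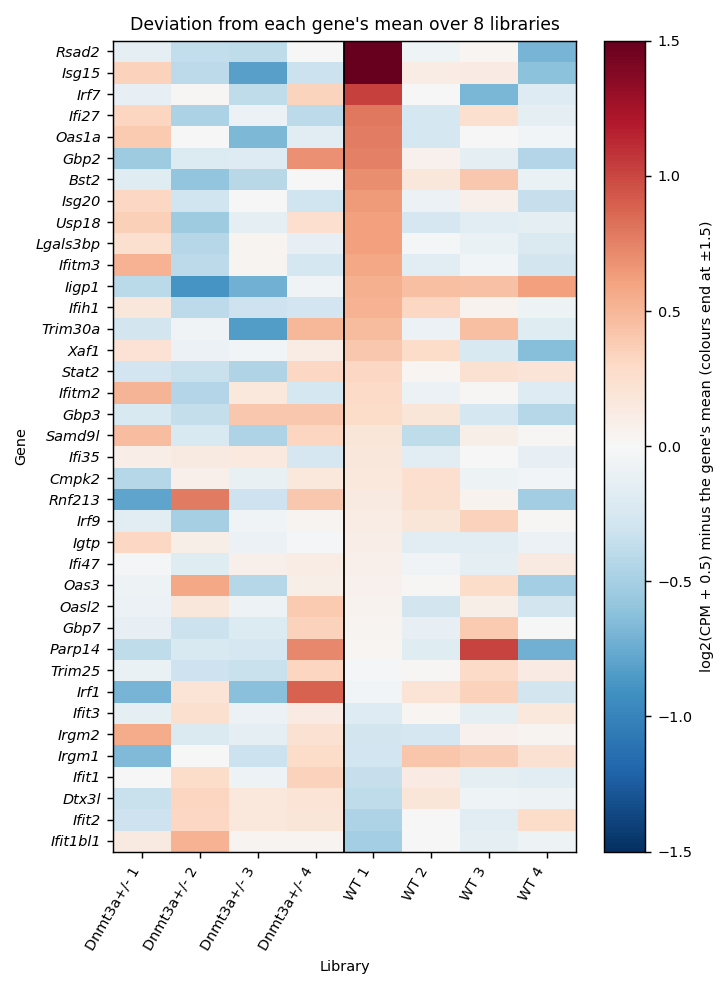
Heat map of log2(CPM + 0.5) minus each gene's mean over 8 libraries for the 38 tested members, with Dnmt3a+/- libraries left and WT libraries right of the line and genes ordered by WT replicate 1. WT replicate 1 is high for Rsad2, Isg15 and Irf7 at the top and low for Ifit2 and Ifit1bl1 at the bottom.

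The members did not move as one block between mice. WT replicate 1 had the highest CPM for 15 of 38 members (39.5%), where it was the highest library for 19.1% of all genes. It was at least 1.5 times every other library for 3 members, Rsad2, Isg15 and Irf7 (7.89%), and for 1.05% of all genes. In the same library 6 members were at their lowest (15.8%, against 19.4% of all genes). These were Ifit1, Ifit2, Ifit3, Ifit1bl1, Dtx3l and Irgm2, so all 4 tested IFIT genes were lowest in the library where Rsad2 and Isg15 were highest. Ube2l6, the transfer enzyme of the ISG15 system and no member of the list, was at 26.1, 12.3, 18.1 and 21.1 CPM in Dnmt3a+/- replicates 1 to 4, against 125.7, 19.2, 25.1 and 17.3 CPM in WT replicates 1 to 4. Ube2l6 was picked after its values were seen, and how many other genes outside the list were high in WT replicate 1 was not counted. That library also had 2.03% of counts in erythroid markers, and their part in the Ube2l6 value was not tested.

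For 9 members (23.7%) the 2 highest libraries were Dnmt3a+/- replicate 1 and WT replicate 1, and for 13.6% of all genes. They were Ifi27, Ifitm2, Ifitm3, Igtp, Isg15, Isg20, Lgals3bp, Oas1a and Usp18. These libraries also had the 2 highest shares of erythroid markers, at 0.486% and 2.03%. They had the 2 highest shares of 12 monocyte and macrophage markers as well, at 0.521% and 0.648%, against 0.342% to 0.394% in the other Dnmt3a+/- libraries and 0.373% to 0.442% in the other WT libraries. Most of that share is Lyz2, and the part of either cell type in the member values was not tested. Without WT replicate 1, the sign of the log2 fold change turned from negative to positive for 9 of 38 members. None turned the other way. Then 25 of 38 were positive, and the median was 0.06, against 0.01 over all genes in that fit. Sign changes over all genes were not counted. WT replicate 1 was the highest library for 15 of the 38 members. Leaving out a WT library with the highest value raises a member's log2 fold change by itself.

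**Figure D4:**
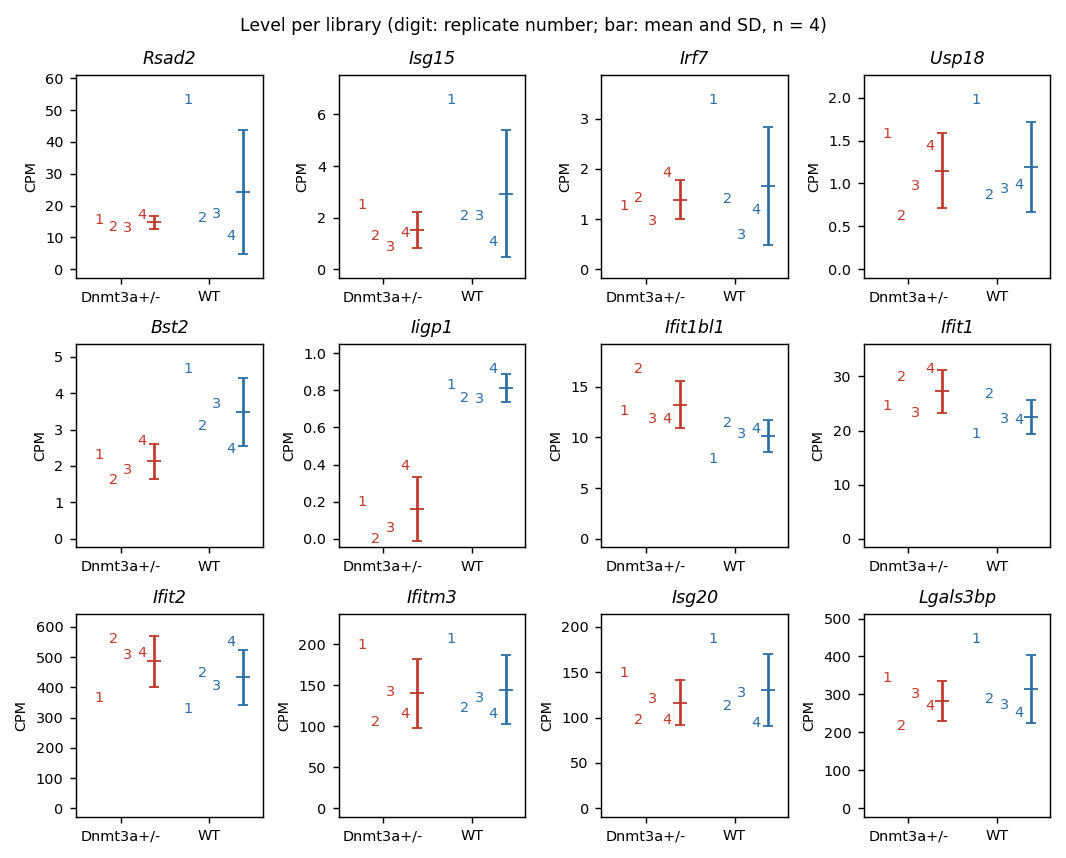
CPM of 12 members in each library, Dnmt3a+/- left and WT right in each panel, where a digit is the replicate number and the bar gives mean and SD (n = 4). Rsad2 at 53.2 CPM and Isg15 at 6.56 CPM are set apart in WT replicate 1, and Iigp1 is the panel in which the labels are furthest apart.

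Other genes of the interferon pathway gave no call. The 20 interferon genes were all but silent, since 18 had 0 counts in all 8 libraries, Ifnb1 and Ifng included, and Ifne and Ifnz had at most 3 and 5 counts in a library. A count of 0 bears on polyadenylated RNA in platelets and not on interferon protein in blood. Of 16 receptor and JAK-STAT genes 10 were tested, 6 with positive and 4 with negative log2 fold changes, and 0 passed. Ptpn11, a phosphatase of growth factor signalling, averaged 259 TPM, Jak1 129.8 TPM and Jak2, the kinase of the thrombopoietin receptor, 92.7 TPM. The type I receptor genes Ifnar1 and Ifnar2 averaged 1.14 and 2.21 TPM, while the interferon gamma receptor genes Ifngr1 and Ifngr2 had at most 12 and 10 counts in a library.

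Of 17 nucleic acid sensing genes, 5 were tested and 0 passed. Mavs, the mitochondrial adaptor of RNA sensing, averaged 23.9 TPM, Irf2 5.94 TPM and Myd88 5.31 TPM. Of 79 further interferon-stimulated genes 32 were tested, and 0 passed. The log2 fold change was positive for 11 and negative for 21, with a median of -0.10, and negative for 51% of all genes. The highest by TPM were Uba7 at 721 TPM, Lgals9, a galectin, at 30.7 TPM and Shisa5 at 29.8 TPM. Gvin1, a very large inducible GTPase, was at 57.6, 76.2, 54.2 and 66.5 CPM in Dnmt3a+/- replicates 1 to 4, against 41.0, 53.9, 53.3 and 46.4 CPM in WT replicates 1 to 4, a log2 fold change of 0.39 (SE 0.14, edgeR adjusted p = 0.758). The chemokine gene Ccl5 was at 6.53, 9.04, 11.8 and 9.81 CPM in Dnmt3a+/- libraries, against 5.10, 6.39, 5.71 and 6.39 CPM in WT libraries (log2 fold change 0.66, SE 0.19, edgeR adjusted p = 0.647). These 2 genes were those of the 32 tested in the further list with an unadjusted edgeR p under 0.05. Of all genes 4.92% were under it in either direction, and 1.73% were under it and higher in Dnmt3a+/- libraries.

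Markers of leukocytes other than the monocyte and macrophage list took small shares of counts under both labels. The 12 neutrophil markers took at most 3.16e-05% of counts in a Dnmt3a+/- library and at most 0.000194% in a WT library, which was WT replicate 1. The 9 markers of plasmacytoid dendritic cells, Bst2 left out, took 0.000179% to 0.000277% in Dnmt3a+/- libraries and 0.000244% to 0.000475% in WT libraries. The 10 B cell markers took 9.62e-05% to 0.00116% of counts in Dnmt3a+/- libraries and 0.000211% to 0.000504% in WT libraries. The 11 markers of T and NK cells took 0.000433% to 0.000647% in Dnmt3a+/- libraries and 0.000342% to 0.000687% in WT libraries. Of these 11, 2 had 0 counts in all 8 libraries, Cd3e among them, and 1 had enough counts to be tested.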

How the data were processed

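Per the labels' protocols, polyadenylated RNA was made into stranded libraries with an Illumina kit. For each gene and library the authors deposited estimated counts and TPM (transcripts per 1000000, corrected for length). The tools named, per the submitters' processing notes, are cutadapt, STAR, RSEM and DESeq2, beside the build mm10, with no role, order or version. The deposited estimated counts are whole numbers, so rounding changed 0 values, and the TPM values the authors deposited sum to 1000000 in each library. Counts were tested with edgeR 4.0.16 under R 4.3.3: genes were kept by filterByExpr (at least 10 counts, total at least 15), scaled by TMM and tested by glmQLFTest after glmQLFit, with Benjamini-Hochberg adjustment over 7362 genes at 0.05. Each standard error is the absolute log2 fold change over the square root of F. The test was tried on simulated data.

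The members, lists, roles and tests were chosen with earlier results of these data known. Values in every library were given for the 15 members with the highest mean TPM and any member with an unadjusted p under 0.05, which made 16; Irf7, Usp18, Ube2l6 and the interferon receptor genes were added after their values were seen. Alternatives were other scaling factors (RLE, upper-quartile), no filter, a strict filter (5 CPM in 4 libraries), DESeq2 1.42.0, limma 3.58.1 on log2(TPM + 0.5), a replicate block and left-out libraries. Gene spans are from GENCODE M21 (GRCm38), which holds all 47 members. Replicate numbers are labelled biological replicates, and in each pair of libraries counts differed beyond sampling noise, with a chi-square of at least 12.2 per degree of freedom.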

Additional observations from a re-analysis of the deposited data

Results flagged for a closer look

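In groups of 4, a library was picked out where its gap to the nearest other exceeded Dixon's 95% critical value as a share of the group's range, which chance gives in about 1 of 20 groups. Of 76 groups (38 members under each label) 6 met this (7.89%). The rate of 1 in 20 assumes normally distributed values, and the share over all genes was not counted. Whether members were picked out more often than other genes therefore cannot be said. Rsad2 in WT replicate 1 was at 53.2 CPM, where the other WT libraries were at 10.4 to 17.4 CPM. Usp18 in WT replicate 1 was at 1.97 CPM, above 0.866 to 0.978 CPM in the other WT libraries. In Dnmt3a+/- replicate 4, Parp14 was at 2.26 CPM (others 0.791 to 0.929 CPM), Stat2 at 0.955 CPM (others 0.364 to 0.462 CPM) and Ifi35 at 1.39 CPM, below the 1.91 to 2.00 CPM of the others. Ifih1 in Dnmt3a+/- replicate 1 was at 0.791 CPM, above 0.372 to 0.434 CPM in the others.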

How the results depend on the processing

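No member passed the adjusted threshold under any of the 16 alternatives. The smallest adjusted p of a member was 0.111, for Iigp1 without a filter on low counts, and its values over the alternatives ran from there to 0.999. Over all genes edgeR called 250 without a filter on low counts and 0 to 135 with 1 library left out, the highest without WT replicate 1, where 134 were lower. DESeq2 called 9, and 1 gene passed without both Dnmt3a+/- libraries whose Dnmt3a was not below WT. The member median of -0.08 became 0.03 under the strict filter, which leaves 14 members, and 0.06 without WT replicate 1. The medians over all genes in these fits were -0.0013 and 0.010. The log2 ratio of summed shares was 0.06, from -0.01 without WT replicate 3 to 0.12 without WT replicate 1. Of 253 values of named members, 231 kept their direction and 22 did not. Ifi47 was 0.017 with upper-quartile factors, 0.0067 without a filter and 0.024 with limma on TPM. Ifitm2 was -0.0021 under the strict filter and -0.016 with the replicate block. Ifitm3 was 0.0075 with limma and 0.087 without both Dnmt3a+/- libraries named above. With 1 library left out, Ifitm3 ran from -0.25 to 0.18, Ifitm2 from -0.17 to 0.14, Ifi47 from -0.053 to 0.044, Ifit3 from -0.0025 to 0.15, Lgals3bp from -0.25 to 0.066, Isg20 from -0.30 to 0.061 and Rsad2 from -0.97 to 0.0049. Without WT replicate 1, Irf7 was at 0.36 and Isg15 at -0.20; the cause was not tested. Deviations of same-numbered libraries correlated at 0.08, 0.11, 0.11 and -0.10, which cannot settle whether the numbers pair the mice. With the replicate block 0 members and 0 genes passed, and the member median was -0.10. At an unadjusted edgeR p under 0.05 the fit with the block had 6 members and 494 genes, against 3 and 362 without it. Members under about 20 counts a library, such as Iigp1 and Ifih1, are limited by depth.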
